A study of Mus musculus with 12 samples.

Results

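The inflammasome and IL-1 family genes described here are Nlrp3, Aim2, Nlrc4, Pycard, Casp1, Casp4, Gsdmd, Il1b, Il18 and Il1rn, 10 genes chosen by name out of the 49315 genes in the count table. All 10 were found in the table and passed the filter on low counts, so each count of members below covers every one of them. RNA was sequenced from epididymal white adipose tissue (eWAT) of 12 mice, 1 library per mouse and 3 mice per group, to ask how methotrexate (MTX) and the Mir181a2b2 locus act on obese adipose tissue. All mice were fed a diet with 60% of fat for 12 weeks. Mice with the genotype Mir181a2b2 flox/flox, named flox here, and mice with Mir181a2b2-/-, named KO, each received a weekly intraperitoneal injection of vehicle or of MTX at 1 mg/kg. The flox mice carry the loxP-flanked locus and the KO mice lack it in the whole body, so that Mir181a-2 and Mir181b-2 are both absent from every cell type of the tissue, and the other Mir181 loci remain. The mice were male and cage-matched littermates according to the methods, and their age is not given in the sources used here. There was no group on a lean diet. The genes lie (GRCm38) at chr11:59541568-59566956 (Nlrp3), chr1:173350879-173466040 (Aim2), chr17:74425438-74459142 (Nlrc4), chr7:127989708-127993867 (Pycard), chr9:5298517-5307265 (Casp1), chr9:5308828-5336783 (Casp4), chr15:75862327-75867408 (Gsdmd), chr2:129364570-129371139 (Il1b), chr9:50554827-50581840 (Il18) and chr2:24336853-24351494 (Il1rn), so that Casp1 and Casp4 are neighbours.

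An inflammasome is a cytosolic complex of innate immune cells. A sensor (Nlrp3, Aim2 or Nlrc4) recruits the adaptor ASC, encoded by Pycard, which activates caspase-1. Caspase-1 cleaves pro-IL-1β and pro-IL-18 into secreted cytokines and opens the pore protein gasdermin D (Gsdmd), while caspase-11, encoded by Casp4 in the mouse, cleaves gasdermin D in response to intracellular lipopolysaccharide. Il1rn encodes the IL-1 receptor antagonist, which occupies the receptor without signalling. In obese adipose tissue macrophages are a known source of these proteins. Activation of an inflammasome is a matter of cleavage and is not visible in mRNA counts.

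The deleted locus encodes miR-181a-5p and miR-181b-5p, which are shown here because the KO and flox groups differ by them. Capitals mark the seed, bases 2 to 8, which these miRNAs share with each other and with the products of the remaining Mir181 loci. The sequences are from RefSeq (GRCm38.p6, plus strand, chr2:38852741-38852763 for miR-181a-5p and chr2:38853845-38853868 for miR-181b-5p).
miR-181a-5p: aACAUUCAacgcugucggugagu
miR-181b-5p: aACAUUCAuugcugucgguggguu
The complement of this seed, TGAATGT, was searched in the longest annotated 3′ UTR of each protein-coding gene (GENCODE M21). It was present in 0 of the 10 members, whose UTRs had a median length of 576 bases and ranged from 88 bases in Casp1 to 3004 bases in Pycard, and in 3427 of 20963 genes overall (16.3%), at a median length of 955 bases. The absence says only that these letters are not in those UTRs.

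Library totals ranged from 19495310 to 23976469 counts. Mir181a-2 and Mir181b-2 precursors had 0 counts in 11 libraries, and flox MTX replicate 4 held 2 reads of Mir181a-2, so that the deletion could not be checked from these libraries. The 8 adipocyte markers summed to between 18191 and 54800 CPM (counts scaled to a common library total), which fits the labelled tissue. Markers of epididymis summed to between 1519 and 12815 CPM in the 3 flox vehicle libraries and to 432 CPM in flox MTX replicate 1, against 1.64 to 19.2 CPM in the other 8, and markers of testis germ cells summed to between 165 and 565 CPM in the flox vehicle libraries and to at most 11.2 CPM elsewhere. Leaving out the 14 epididymis and 8 testis genes of these lists before normalization changed the number of members called in no comparison. Other reads from these tissues stayed in the libraries, so this does not show whether such tissue affects the members. The 10 macrophage markers summed to between 410 and 657 CPM in the flox vehicle libraries, 2847 and 5808 in KO vehicle, 381 and 2591 in flox MTX, and 3585 and 6053 in KO MTX. In whole tissue, fewer cells of a type and less RNA per cell cannot be told apart. The flox MTX group was the least uniform, with flox MTX replicate 2 at the upper and replicate 4 at the lower end of the macrophage sum.

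Among the members, levels differed widely. Per kilobase of exon, Casp1 had the highest mean and Gsdmd the second highest in each of the 4 groups, and Il1b had the lowest in each. Exon length was that of all annotated exons of a gene merged, 3800 bases for Pycard and 1497 for Casp1. The order therefore depends on which transcripts are annotated. Without this scaling, the flox vehicle means were 16.5 CPM for Gsdmd, 10.4 for Casp1 and 10.1 for Pycard. In flox vehicle mice Casp1 stood at a mean of 6.98 CPM per kilobase and Gsdmd at 6.93, with overlapping libraries, followed by Il18 (4.38), Pycard (2.66), Casp4 (2.39), Aim2 (0.993), Il1rn (0.796), Nlrc4 (0.422), Nlrp3 (0.215) and Il1b (0.0678). In KO vehicle mice Casp1 (29.6 CPM per kilobase) was above Gsdmd (21.3) in every library, and Il1rn (11.5) had moved from the seventh to the third place in the order, with libraries that overlapped those of Gsdmd and Pycard. The sensors Nlrc4 and Nlrp3 stayed in the eighth and ninth place in every group.

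**Figure D1:**
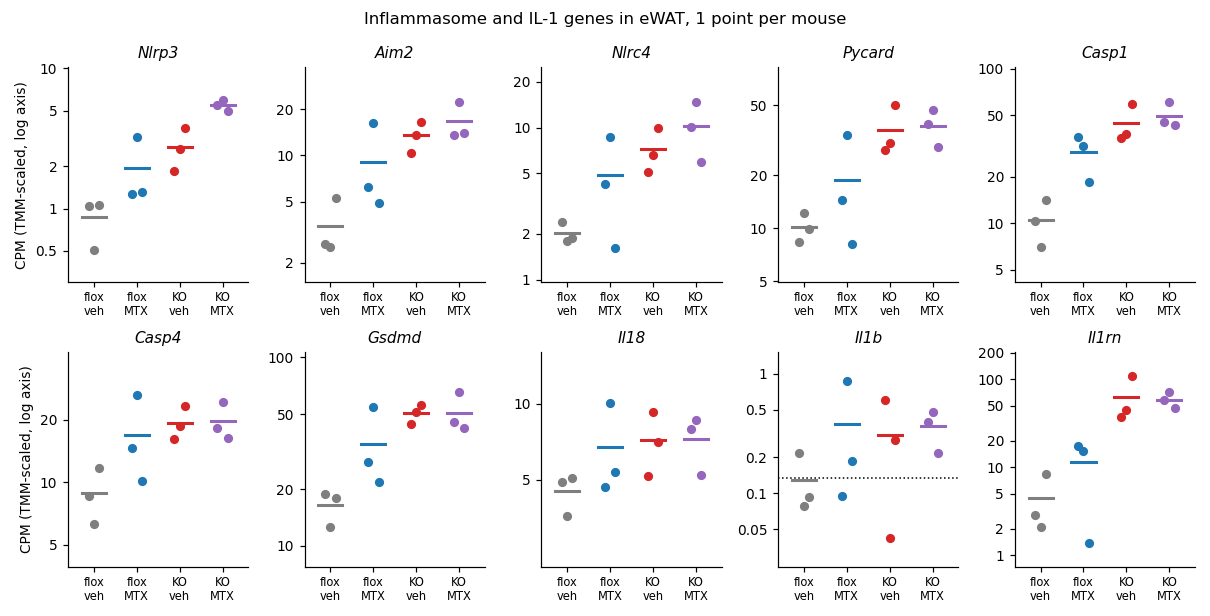
CPM scaled with TMM factors (log axis) of the 10 members, 1 point per mouse and 1 column per group, with the mean as a horizontal bar; the dotted line in the Il1b panel marks the level of 3 counts in a library of median scaling. All panels but that of Il1b have every KO vehicle mouse above every flox vehicle mouse.

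In the vehicle groups, 8 of the 10 members were called higher in KO mice and none lower than in flox mice, where a call needed an adjusted p under 0.1 together with a 1.5-fold change, and 13.9% of all 18702 genes tested were called higher. For 9 members every KO vehicle library was above every flox vehicle library, as for 22.8% of all genes. The median log2 fold change of the members was 1.75, against -0.06 over all genes. DESeq2 also called 8 members, and 6245 of all genes in either direction against 5924 in edgeR. Leaving out 1 library at a time gave between 7 and 9 members called, and between 4640 and 6828 of all genes. Casp4 was not called without KO vehicle replicate 3 (adjusted p = 0.101) and Il18 was called without flox MTX replicate 2 (adjusted p = 0.0852).

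The sensors were higher in KO mice. Nlrp3, which responds to a broad set of danger signals, had 1.04, 0.511 and 1.06 CPM in replicates 1, 3 and 4 of the flox vehicle group and 1.86, 2.67 and 3.75 CPM in KO vehicle replicates 1, 2 and 3, a log2 fold change of 1.66 (SE 0.45, adjusted p = 0.0171). The groups did not overlap. Aim2, the sensor of cytosolic DNA, stood at 2.65, 2.52 and 5.26 CPM in flox mice and at 10.4, 13.6 and 16.5 CPM in KO mice, a log2 fold change of 1.96 (SE 0.46, adjusted p = 0.00975). The lowest KO value was above the highest flox value, which came from flox vehicle replicate 4. Nlrc4, which answers to bacterial flagellin and secretion proteins through NAIP proteins, stood at 2.39, 1.81 and 1.89 CPM in flox mice and at 5.14, 6.65 and 9.89 CPM in KO mice, a log2 fold change of 1.83 (SE 0.54, adjusted p = 0.0257).

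The adaptor, both caspases and the pore gene were higher as well. Casp1 was the member with the smallest adjusted p: its 10.3, 6.96 and 14.0 CPM in flox mice stood against 35.6, 37.9 and 59.5 CPM in KO mice, a 4.25-fold difference (log2 fold change 2.09, SE 0.32, adjusted p = 0.00297). Pycard stood at 8.33, 12.1 and 9.83 CPM in flox mice and at 27.7, 30.4 and 50.0 CPM in KO mice, a log2 fold change of 1.83 (SE 0.44, adjusted p = 0.0108). A predicted gene on the opposite strand, Gm45205, shares 485 exon bases with Pycard and held 408 counts over all libraries against 6869 of Pycard, and since the strand setting of the counting is not stated the reads of the pair cannot be told apart. Gsdmd stood at 18.9, 12.6 and 17.9 CPM in flox mice and at 44.5, 51.1 and 56.1 CPM in KO mice, which is 3.07-fold (adjusted p = 0.00474). In all 3 genes the groups were separate. Casp4 had the smallest difference of the 8, from 8.55, 6.33 and 11.7 CPM to 16.2, 18.6 and 23.2 CPM, which is 2.18-fold (log2 fold change 1.12, SE 0.34, adjusted p = 0.0295).

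The largest difference of the 10 members was in the antagonist gene and not in the cytokine genes. Il1rn had 2.86, 2.08 and 8.26 CPM in replicates 1, 3 and 4 of the flox vehicle group and 37.0, 44.8 and 109 CPM in KO vehicle replicates 1, 2 and 3. The fitted difference was 14.5-fold (log2 fold change 3.86, SE 0.82, 95% interval 2.06 to 5.65, adjusted p = 0.00610). The highest flox library, replicate 4, was below the lowest KO library, and the log2 fold change ranged from 3.23, when KO vehicle replicate 3 was left out, to 4.69, when flox vehicle replicate 4 was. Il18 stood at 4.90, 3.58 and 5.08 CPM in flox mice and at 5.19, 9.27 and 7.08 CPM in KO mice. Its groups did not overlap, but the lowest KO value was next to the highest flox value and the difference was not called (log2 fold change 0.67, 95% interval -0.08 to 1.42, adjusted p = 0.165).

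Il1b, the gene of the main inflammasome cytokine, was hardly detected. Its counts were 5, 2 and 2 in flox vehicle replicates 1, 3 and 4, 12, 1 and 6 in KO vehicle replicates 1, 2 and 3, 2, 19 and 3 in flox MTX replicates 1, 2 and 4, and 9, 11 and 5 in KO MTX replicates 2, 3 and 4. Thus 77 reads in all were counted over the 12 libraries, and 5 libraries had 3 counts or fewer, the limit that a count of 0 allows. These counts correspond to 0.0423 to 0.864 CPM. The groups overlapped, and the log2 fold change of 1.20 between the vehicle groups had a 95% interval of -0.93 to 3.33 (adjusted p = 0.381), so that neither a rise nor a fall of Il1b was detectable at this depth. An antisense gene, Il1bos, shares 25 exon bases with Il1b and held 62 counts over the libraries. Its share of the Il1b reads was not tested.

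Il1b and Il1rn act at the same receptor, and their counts were therefore also compared within each library. In flox vehicle replicates 1, 3 and 4 there were 75.8, 37.7 and 11.2 Il1b counts per 1000 Il1rn counts, and in KO vehicle replicates 1, 2 and 3 there were 16.3, 0.945 and 2.59. The mean log2 ratio was 3.21 lower in KO mice, log2 difference -3.21, with overlapping libraries (exact permutation test, two-sided, p = 0.2, adjusted p = 0.6 over 4 comparisons, where 0.1 is the smallest p that 3 against 3 allows). In the MTX groups the ratio was 5.41, 56.5 and 136 per 1000 in flox replicates 1, 2 and 4, and 6.74, 6.66 and 4.67 per 1000 in KO replicates 2, 3 and 4 (log2 difference -2.54, exact permutation test, two-sided, p = 0.3, adjusted p = 0.6). Antagonist mRNA was thus in excess of Il1b mRNA in all 12 libraries as counted, not corrected for exon length (5535 bases for Il1rn and 1907 for Il1b). The smallest excess was 22 Il1rn counts against 3 Il1b counts, in flox MTX replicate 4. For Il18 and its soluble inhibitor Il18bp, the counts in the vehicle groups gave 1.06, 0.457 and 1.34 Il18 counts per Il18bp count in flox mice and 1.41, 1.99 and 1.41 in KO mice. The KO libraries were all above the flox libraries, with a log2 difference of 0.87 (exact permutation test, two-sided, p = 0.1, adjusted p = 0.4).

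**Figure D2:**
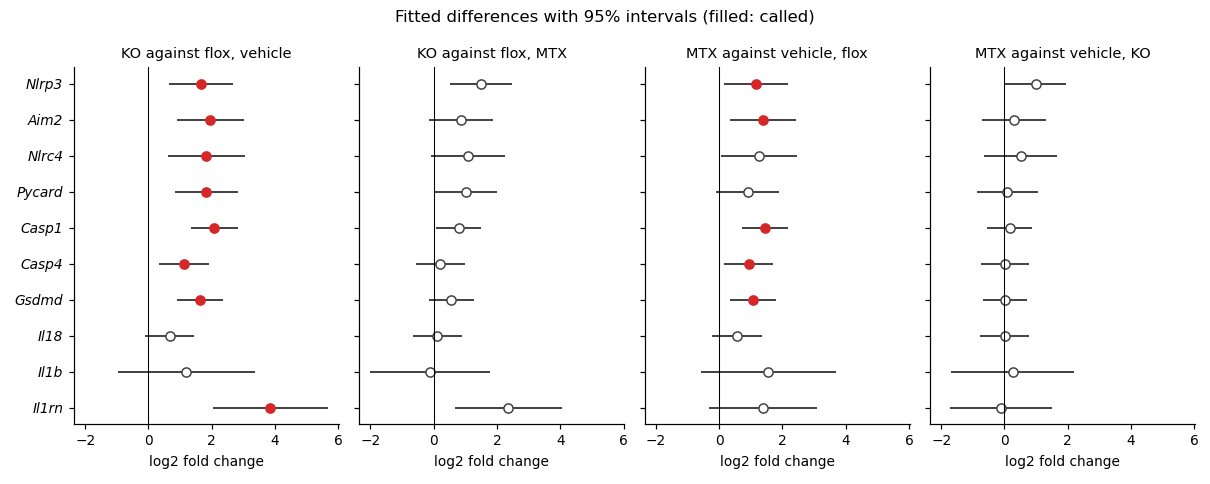
Log2 fold change of each member in 4 comparisons (x axis), with the 95% interval of the edgeR fit as a line; filled points were called and open points were not. The vehicle comparison of genotypes has 8 filled points, MTX against vehicle in flox mice has 5, and the other panels have none.

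Promoter sequence is shown for the 4 called members with the largest difference and for Il1b as the member with the largest difference that was not called, since the 4 moved together and Il1b did not pass the test. Each line gives the 250 bases upstream of a RefSeq transcript start (GRCm38.p6), 5′ to 3′ in the direction of the gene. Il1rn has several starts, and a distal and a proximal window are given because gene counts do not tell which is used. Capitals mark a match, on either strand, to the PU.1 motif AGGAAGT, the AP-1 motif TGANTCA, the κB motif or the ISRE motif GAAANNGAAA.
Il1rn promoter, chr2:24336610-24336859, + strand: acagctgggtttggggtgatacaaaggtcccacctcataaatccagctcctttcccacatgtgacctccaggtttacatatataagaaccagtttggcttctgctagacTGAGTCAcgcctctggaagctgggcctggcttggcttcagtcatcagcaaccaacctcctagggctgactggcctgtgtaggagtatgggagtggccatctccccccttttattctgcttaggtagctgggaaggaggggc
Il1rn promoter, chr2:24345041-24345290, + strand: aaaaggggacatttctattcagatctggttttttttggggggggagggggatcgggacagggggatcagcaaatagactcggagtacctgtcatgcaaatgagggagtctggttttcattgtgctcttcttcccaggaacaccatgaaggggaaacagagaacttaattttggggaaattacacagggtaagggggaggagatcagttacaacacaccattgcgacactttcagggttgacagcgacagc
Casp1 promoter, chr9:5298267-5298516, + strand: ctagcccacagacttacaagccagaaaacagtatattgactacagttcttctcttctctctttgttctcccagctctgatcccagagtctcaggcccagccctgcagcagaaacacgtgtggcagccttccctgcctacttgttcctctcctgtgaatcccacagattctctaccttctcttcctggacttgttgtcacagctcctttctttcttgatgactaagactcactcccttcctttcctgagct
Aim2 promoter, chr1:173420354-173420603, + strand: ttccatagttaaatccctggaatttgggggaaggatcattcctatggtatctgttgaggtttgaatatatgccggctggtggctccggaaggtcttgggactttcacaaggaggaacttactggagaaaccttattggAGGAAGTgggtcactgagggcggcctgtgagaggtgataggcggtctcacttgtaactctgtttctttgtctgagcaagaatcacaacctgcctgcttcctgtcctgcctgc
Pycard promoter, chr7:127993868-127994117, - strand: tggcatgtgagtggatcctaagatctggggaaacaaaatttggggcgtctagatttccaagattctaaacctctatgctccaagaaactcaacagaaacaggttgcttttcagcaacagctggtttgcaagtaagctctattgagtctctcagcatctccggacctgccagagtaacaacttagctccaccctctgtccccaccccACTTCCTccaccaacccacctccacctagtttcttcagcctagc
Il1b promoter, chr2:129371140-129371389, - strand: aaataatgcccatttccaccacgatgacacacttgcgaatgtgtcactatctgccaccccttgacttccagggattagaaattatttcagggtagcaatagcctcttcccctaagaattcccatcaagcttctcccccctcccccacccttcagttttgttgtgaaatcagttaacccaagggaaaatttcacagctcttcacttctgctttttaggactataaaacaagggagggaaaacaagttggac
The distal Il1rn window held an AP-1 match from 141 to 135 bases before the start, a motif present in 6.75% of 32851 promoters. Aim2 held a PU.1 match from 112 to 106 bases before its start and Pycard held a reverse match from 44 to 38 bases before its start, and 7.69% of all promoters held this motif. The windows of Casp1 and Il1b held none of the 4 motifs. Among the members not printed, Nlrc4 held 2 PU.1 matches and Casp4 and Nlrp3 held κB matches (7.25% of promoters), whereas the Il18 window held none and ISRE, present in 2.98% of promoters, was in no member. The motifs were chosen after the values were seen, a match is no evidence of binding, and Gsdmd was not searched.

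In the MTX groups, none of the 10 members was called by edgeR, as was none of all genes tested. Casp1, Il1rn, Nlrp3 and Pycard, 4 members, had an unadjusted p below 0.05 and were higher in KO mice, and 11.5% of all genes did so. The libraries of 3 members did not overlap, namely Casp1, Il1rn and Nlrp3, against 14.7% of all genes. Nlrp3 stood at 1.28, 3.23 and 1.31 CPM in flox MTX replicates 1, 2 and 4 and at 5.52, 5.98 and 4.94 CPM in KO MTX replicates 2, 3 and 4, a log2 fold change of 1.49 (SE 0.43, adjusted p = 0.110). Il1rn stood at 17.5, 15.3 and 1.38 CPM in flox mice and at 58.1, 71.5 and 46.8 CPM in KO mice, a log2 fold change of 2.36 (SE 0.76, 95% interval 0.70 to 4.02, adjusted p = 0.119). Flox MTX replicate 4 was the lowest of all 12 libraries for Il1rn. Casp1 stood at 36.2, 31.4 and 18.4 CPM in flox mice and at 45.1, 61.1 and 43.1 CPM in KO mice (log2 fold change 0.79, SE 0.31, adjusted p = 0.155). The differences of Casp4 (0.21), Il18 (0.11) and Il1b (-0.11) on the log2 scale were within their intervals around 0.

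The number of calls in this comparison changed with the libraries and the tool. Without flox MTX replicate 2, in which Pycard (33.8 CPM), Gsdmd (54.5 CPM), Aim2 (16.2 CPM) and Casp4 (26.1 CPM) were the highest of their group, 6 members were called higher in KO mice (Nlrp3, Aim2, Nlrc4, Pycard, Gsdmd and Il1rn, adjusted p from 0.0277 to 0.0763), and 4064 genes overall. Without flox vehicle replicate 3, 1 member was called (Nlrp3, adjusted p = 0.0976), and 1028 genes overall. DESeq2 called 4 members on all libraries (Nlrp3, Il1rn, Casp1 and Pycard, adjusted p from 0.0152 to 0.0992), and 2769 of all genes. Flox MTX replicate 2 also had the highest macrophage sum of its group, as well as 247 CPM of B cell markers against 16.7 and 74.8 CPM in the other flox MTX libraries, and KO MTX replicate 3 had 214 CPM. The part of these cells in the result was not tested.

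In flox mice, MTX against vehicle gave 5 members called higher (Casp1, Gsdmd, Aim2, Casp4 and Nlrp3) and none lower, with 8.09% of all genes called higher. For 3 members, Casp1, Gsdmd and Nlrp3, the libraries did not overlap (10.9% of all genes). The clearest difference was again that of Casp1, from 10.3, 6.96 and 14.0 CPM under vehicle to 36.2, 31.4 and 18.4 CPM under MTX, which is 2.75-fold (log2 fold change 1.46, SE 0.32, adjusted p = 0.0122). Gsdmd stood at 27.8, 54.5 and 21.9 CPM under MTX (log2 fold change 1.08, SE 0.31, adjusted p = 0.0351), all above the vehicle mice. Aim2 stood at 6.24, 16.2 and 4.88 CPM, and replicate 4 was below the highest vehicle mouse (log2 fold change 1.40, SE 0.46, adjusted p = 0.0556). The adjusted p of Casp4 was 0.0749 (log2 fold change 0.94) and that of Nlrp3 0.0907 (log2 fold change 1.16). Without flox MTX replicate 2 the log2 fold change was 0.69 for Aim2, 0.61 for Gsdmd, 0.49 for Casp4 and 0.58 for Nlrp3. Il1rn was not called (log2 fold change 1.39, SE 0.76, adjusted p = 0.225): replicates 1 and 2 under MTX were above every vehicle mouse and replicate 4 was below every one. With all libraries, 4528 of all genes were called in either direction. Leaving out flox vehicle replicate 3 gave 1 member called (2219 of all genes). Leaving out flox vehicle replicate 1 gave 2 (3778 of all genes), and leaving out flox MTX replicate 2 gave 2 (4685 of all genes). Leaving out flox MTX replicate 4 gave 8 (4999 of all genes). Casp1 alone was called when the 6 libraries were fitted alone (2167 of all genes). The differences from the flox vehicle group in this comparison and in the vehicle comparison of genotypes share those 3 libraries.

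In KO mice, none of the members was called between MTX and vehicle by edgeR or DESeq2. Of all genes tested, edgeR called 0 and DESeq2 281. Nlrp3 had an unadjusted p below 0.05, as had 3.42% of all genes in the higher direction. Its 1.86, 2.67 and 3.75 CPM under vehicle and 5.52, 5.98 and 4.94 CPM under MTX did not overlap, which held for no other member and for 11.1% of all genes. Its log2 fold change was 0.99 (SE 0.42, adjusted p = 0.588). For Casp1 the log2 fold change was 0.17 with a 95% interval of -0.51 to 0.84, for Gsdmd 0.01 (-0.66 to 0.68), for Casp4 0.03 (-0.70 to 0.76) and for Il18 0.01 (-0.73 to 0.76). Il1rn had -0.11 (-1.68 to 1.46). The intervals of Gsdmd, Casp4, Il18 and Il1rn include a change of 1.5-fold in either direction. The interaction test, which asks whether MTX acted differently in KO and flox mice, called no member. Of all 18702 genes it called 185, of which 168 had an estimate above 0 and 17 below 0. All 10 estimates were below 0, and 8686 of all 18702 genes had an estimate above 0. The 10 estimates rest on the same libraries, and without flox MTX replicate 2 those of Nlrp3 (0.40) and Il1b (0.16) were above 0. Casp1 (-1.30, SE 0.44, adjusted p = 0.213) and Gsdmd (-1.07, SE 0.44, adjusted p = 0.284) had an unadjusted p below 0.05, against 5.45% of all genes in the lower direction. Casp1 was called without flox vehicle replicate 4 (adjusted p = 0.0859).

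Markers of several cell types moved with the members, macrophage markers among them. All 10 macrophage markers were called higher in KO than in flox mice under vehicle, with a median log2 fold change of 2.75, and 9 of 10 were called higher with MTX in flox mice (median 1.63). Among them Cd68 ranged from 29.5 to 44.2 CPM in flox vehicle libraries and from 357 to 777 CPM in KO vehicle libraries. Their medians under MTX against vehicle in KO mice (0.45) and in KO against flox mice under MTX (1.54) came with 0 calls. Between the vehicle groups, markers of fibroblasts (5 of 5, median log2 fold change 1.47), mast cells (4 of 5, median 2.64), endothelium (5 of 6, median 1.13), dendritic cells (3 of 5, median 0.66) and monocytes (1 of 5, median 0.76) were also called higher in KO mice. With MTX in flox mice, markers of T cells (4 of 5, median 1.91), mesothelium (4 of 5, median 1.78), monocytes (3 of 5, median 0.85), B cells (2 of 4, median 2.5), fibroblasts (2 of 5, median 0.89) and dendritic cells (2 of 5, median 0.65) were called higher. Of the 10 neutrophil markers 6 were tested: 2 were called higher and 2 lower in KO mice under vehicle, and 4 higher and 1 lower with MTX in flox mice. S100a8 ranged from 2.66 to 13.9 CPM in flox vehicle and from 19.7 to 35.9 CPM in KO vehicle libraries, and Csf3r from 2.51 to 3.35 and from 8.53 to 9.84 CPM, whereas Ly6g was at most at 0.185 CPM in any library. The sum of the neutrophil list was led in the flox vehicle libraries by Ltf, at 204 to 337 CPM, in the same libraries as the epididymis markers. The part of the macrophages and of these other cell types in the members' differences was not tested. The flox vehicle libraries, with 1519 to 12815 CPM of epididymis and 165 to 565 CPM of testis markers, were the reference in both comparisons with called members. In these comparisons the difference in genotype or MTX cannot be told apart from that in such tissue, whose part was not tested.

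On a scale of counts per macrophage marker count within a library, 8 members were lower in every KO vehicle library than in every flox vehicle library (Nlrp3, Aim2, Nlrc4, Pycard, Casp1, Casp4, Gsdmd and Il18), the opposite of their direction per library total. On this scale 95.4% of all genes were lower without overlap, and the denominator itself was higher in KO mice. The denominator was led by Lgals3, at 162 to 233 CPM in flox vehicle and 1338 to 3055 CPM in KO vehicle libraries, so values on this scale depend on the make-up of the list. The Il1b libraries overlapped (log2 difference -2.17, exact permutation test, two-sided, p = 0.3, adjusted p = 0.522). Il1rn went the other way: it was higher per macrophage marker count in every KO vehicle library, as was the case for 62 of the 18702 genes (0.332%). The values of Il1rn were 5.64, 5.50 and 12.8 per 1000 marker counts in flox vehicle replicates 1, 3 and 4 and 13.1, 14.0 and 19.2 in KO vehicle replicates 1, 2 and 3 (log2 difference 1.05, exact permutation test, two-sided, p = 0.1, adjusted p = 0.267 over 40 comparisons). The highest flox library lay close to the lowest KO library. Under MTX it stood at 10.4, 5.99 and 2.96 per 1000 in flox mice and at 13.5, 12.6 and 13.2 in KO mice (log2 difference 1.20, exact permutation test, two-sided, p = 0.1, adjusted p = 0.267), and 0.497% of all genes were higher without overlap. Under MTX, 4 members were lower without overlap in KO mice (Casp1, Casp4, Gsdmd and Il18), against 73.7% of all genes. Casp1 was close to constant among the KO libraries, between 10.5 and 12.6 per 1000, and stood between 18.4 and 21.8 in the flox vehicle libraries. Flox MTX replicates 1, 2 and 4 had 21.7, 12.3 and 39.7 per 1000, so that replicate 2 lay within the KO range and replicate 4 above every other library. Nlrp3 was the member that differed between KO MTX and KO vehicle mice on this scale, at 1.28, 1.05 and 1.39 against 0.661, 0.832 and 0.663 per 1000, without overlap (log2 difference 0.79, exact permutation test, two-sided, p = 0.1, adjusted p = 0.267), which held for 1.76% of all genes in this direction. With Cd68, Csf1r and Adgre1 as the only markers, this difference moved by at least its SD of 0.20, so its size depends on the list.

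**Figure D3:**
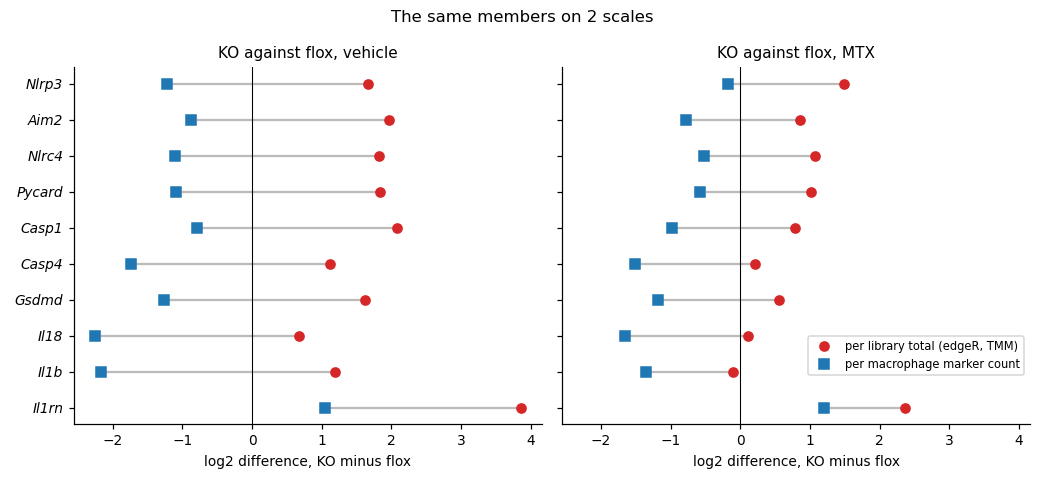
Log2 difference, KO minus flox, of each member (x axis) under vehicle and under MTX, as fitted per library total (red circles) and as the mean difference per macrophage marker count (blue squares). Il1rn is on the right of 0 on both scales in both panels, whereas under vehicle the other 9 members change side.

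**Figure D4:**
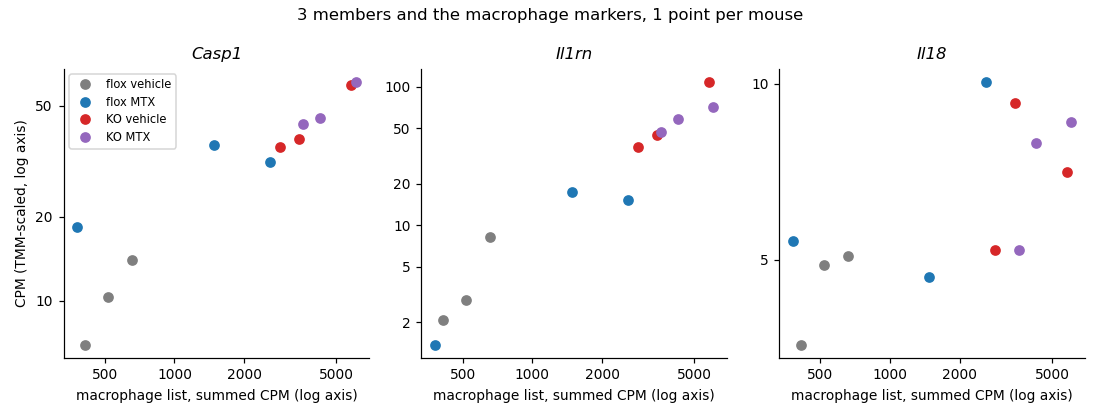
CPM of Casp1, Il1rn and Il18 (y axis, log) against the summed CPM of the 10 macrophage markers (x axis, log), 1 point per mouse and coloured by group. The flox vehicle mice lie at 410 to 657 CPM of markers and the KO mice at 2847 or above, with the flox MTX mice spread between 381 and 2591.

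Of 42 other genes of the inflammasome and IL-1 system, 41 were found and 35 passed the filter. In KO against flox mice under vehicle, 15 were called higher, with 13.9% of all genes called higher, and 1 lower, with 17.8% of all genes called lower. The largest rises were in Naip2 (log2 fold change 2.49, adjusted p = 0.00483), which links bacterial proteins to Nlrc4, in Nlrp1a (2.19, adjusted p = 0.0167) and in P2rx7 (2.11, adjusted p = 0.00392), the ATP-gated channel upstream of NLRP3. P2rx7 was at 11.5, 11.3 and 12.6 CPM in flox mice and at 40.6, 48.0 and 64.8 CPM in KO mice. Sensors made up 7 of the 15 (Naip2, Naip5, Naip6, Nlrp1a, Nlrp1b, Nlrp10 and Mefv), and genes upstream of the sensors 3 (P2rx7, Panx1 and Txnip). The gene called lower was Naip1 (-2.33, adjusted p = 0.0545), which stood at 7.16 CPM in flox vehicle replicate 3 and at 1.39 CPM or less in the other 5 libraries. The Naip genes and the Nlrp1 genes are close copies, and reads can be split among them in a way that the sources do not state.

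Among the 6 receptor genes tested, 3 were called higher, and among the 7 genes of receptor signalling 1 was. The signalling receptor Il1r1 had a log2 fold change of 0.50 (adjusted p = 0.0876), below the limit of fold change, and the decoy receptor Il1r2 (0.52, adjusted p = 0.592) and Il18bp (-0.28, adjusted p = 0.559) were not called. The receptor genes called higher were Il1rap, Il1rl1 and Il1rl2, and the signalling gene was Irak3, an inhibitor of the receptor's kinases, while Myd88, Irak1, Irak2, Irak4, Traf6 and Tollip were not. Among the other ligands, Il1a stood at 0.169 to 0.865 CPM and did not pass the filter, Il36a, Il36b and Il1f10 had 0 counts in every library, and Il33 was not called (0.82, adjusted p = 0.233).

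With MTX in flox mice, 15 of the 35 were called higher, with 8.09% of all genes called higher, and 1 lower, with 16.1% of all genes called lower. The largest rises were those of Mefv, the gene of pyrin (1.80, adjusted p = 0.0174), Naip2 (1.78, adjusted p = 0.0276) and the receptor gene Il18r1 (1.70, adjusted p = 0.0338), and Il33 rose by 1.51 (adjusted p = 0.0559). Nlrp6, a sensor known from epithelia, was called lower: its level was 4.82, 3.38 and 4.34 CPM in the flox vehicle mice and 0, 0.0909 and 0 CPM under MTX, that is at 2 counts or fewer. It stood at 1.66, 1.95 and 0.0469 CPM in KO vehicle replicates 1, 2 and 3 and at 3 counts or fewer in KO MTX mice. The flox vehicle libraries are those with the markers of epididymis, and the part of that tissue in the Nlrp6 counts was not tested. In the other comparisons and in the interaction no pathway gene was called by edgeR. Of all genes, edgeR called 0 in these comparisons and 185 in the interaction. At an unadjusted p below 0.05 there were 10 in KO against flox mice under MTX, 2 with MTX in KO mice and 1 in the interaction, of 35 each. Over all 18702 genes there were 4576, 1491 and 2811.

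**Figure D5:**
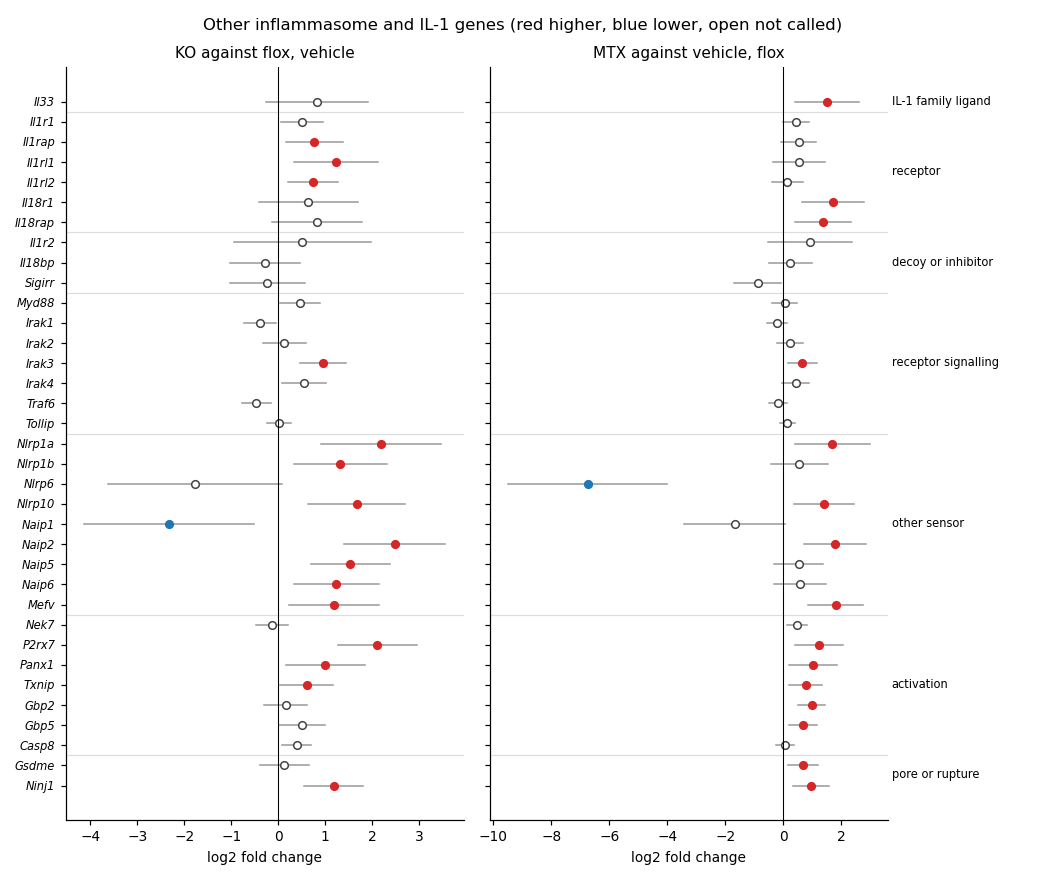
Log2 fold change (x axis) with its 95% interval for the 35 tested pathway genes, in rows grouped by role, for KO against flox under vehicle and MTX against vehicle in flox mice; red points were called higher, blue points lower and open points were not called. In each panel 15 points are red and 1 is blue, Naip1 on the left and Nlrp6 on the right.

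Over the 12 libraries, the genes with the pattern most like that of Casp1, by Pearson correlation of log2 CPM, were Ctsb (0.99), Rgs19 (0.99) and Ctsd (0.99), of which Ctsb and Ctsd encode lysosomal cathepsins. For Nlrp3 they were Ppp1r21 (0.98), Lrp1 (0.98) and Adcy3 (0.98), and for Il18 Dexi (0.93), A530040E14Rik (0.93) and Arpin (0.93). For Il1b they were Samd3 (0.87), Gm27201 (0.87) and Gnl1 (0.85), at counts where few reads decide the order. Between members the correlation was highest for Aim2 and Gsdmd (0.97), and Il1b had the lowest values, from 0.34 with Il1rn to 0.58 with Gsdmd. These values describe 12 libraries that share 4 group means and the same markers.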

How the data were processed

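eWAT RNA of 12 mice was analysed, 3 per group. Per the labels and methods, the authors trimmed reads with Trimmomatic 0.36, aligned them with STAR 2.5.2b to GRCm38 (mm10) and used featureCounts (Subread 1.5.2) with Ensembl annotation for counting, and the values they deposited are raw read counts. Depletion of ribosomal RNA is named in the methods and polyA RNA in the labels, which affects transcripts without a polyA tail, and the strand setting is not stated. Symbols, exon lengths and coordinates came from GENCODE M21, and 3 of the listed genes were matched through older symbols in RefSeq. Genes without a symbol held 0.0688% of counts.

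Counts were tested across all genes in R 4.3.3 with edgeR 4.0.16: filterByExpr by group (18702 genes), TMM, 1 coefficient per group over 12 libraries, then glmQLFit and glmQLFTest, adjusted by Benjamini-Hochberg. A call needed an adjusted p under 0.1 together with a 1.5-fold change. CPM values use TMM factors, whereas marker sums are shares of all counts. The SE is the log2 fold change over the root of F. P-values measure the spread between mice, and the limit of 3 counts covers counting error only. Ratios of counts within a library were compared by exact permutation tests over libraries. The procedure was tested on simulated counts without admixed tissue or an outlying library, so that test does not cover these features of the data.

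The members, gene lists and tests were chosen with earlier results of these data known. Named pathway genes are the 3 called with the largest rise and the 3 with the largest fall per comparison, and Il1a, Il33, Il1r1, Il1r2 and Il18bp. Promoters were printed for up to 4 members called in the same direction and 1 not called, by size of the difference. Marker lists of 14 cell types and tissues were used. Alternatives were each library left out, DESeq2 1.42.0, RLE factors, scaling by library size, testing unfiltered genes, a minimum of 10 counts per library, a replicate block, fitting a comparison by itself, other call limits, dropping the epididymis and testis lists, adding 0.5 counts to ratios and a shorter macrophage list. No library within a group was a duplicate of another.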

Additional observations from a re-analysis of the deposited data

How the results depend on the processing

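Of 109 counts of members called under the alternatives, 94 stayed within 1.5 times the count reported. For KO against flox mice under MTX, where 0 members were called, DESeq2 called 4, the fit without a filter 1 and the fit under a minimum of 10 counts per library 2, and leaving out 1 library at a time gave 0 to 6. For MTX against vehicle in flox mice, where 5 were called, the count was 2 when scaled by library size, 3 under a minimum of 10 counts per library, 1 when the comparison was fitted by itself and 2 at an adjusted p below 0.05, and 1 to 8 when a library was left out. The interaction gave 0 to 1. Over all genes, KO against flox under MTX gave 2769 calls in DESeq2, 875 without a filter, 1491 under the minimum of 10 counts, 4 when fitted by itself and up to 4064 with a library left out, against 0. MTX in flox mice gave 2198 under that minimum, 2771 with the block, 2167 by itself and 2219 to 5995 with a library left out, against 4528. MTX in KO mice gave 281 in DESeq2, 20 without a filter, 3 by itself and up to 215 with a library left out, against 0. The interaction gave 1248 in DESeq2, 472 without a filter, 1 under that minimum, 0 with the block, 33 at an adjusted p below 0.05 and 5 to 1371 with a library left out, against 185. The ratios of Il1b to Il1rn and of Il18 to Il18bp moved by less than 1 SD in all 56 alternative values, some with a change of sign: with MTX in flox mice, leaving out 1 library gave -0.86 to 1.47 for Il1b to Il1rn (0.13 with all) and -0.20 to 0.57 for Il18 to Il18bp (0.26 with all), and with MTX in KO mice -0.13 to 1.93 and -0.44 to 0.13. Per macrophage marker count the sign changed in 9 values for MTX in flox mice, 7 for MTX in KO mice and 1 for KO against flox mice under MTX. By size, the values per macrophage marker count moved by less than 1 SD in 312 of 320, the other 8 being MTX against vehicle in KO mice with Cd68, Csf1r and Adgre1 as the only markers, that of Nlrp3 among them. Where the count of calls depends on the setting, the cause was not tested.

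Replicate numbers are shared between groups, but the 12 pairs of libraries with the same number had a median residual correlation of 0.035, against 0.011 in the other 42 pairs, so the numbers were not taken to pair the mice. With the replicate number as a block, 7 members were called in KO against flox mice under vehicle (Casp4 not, adjusted p = 0.114), and 5080 of all genes. In that fit 1 member was called with MTX in flox mice, and 2771 of all genes. The log2 fold change of Il1b in KO against flox mice under MTX was 0.048 in place of -0.11.

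Among the log2 fold changes of members, changes of sign were in values that were not called, in KO against flox mice under MTX, in MTX against vehicle in KO mice or in the interaction. Il1b under MTX was at 1.57e-04 when scaled by library size. With MTX in KO mice, Gsdmd and Il18 were at -0.0053 and -0.015 when scaled by library size, at -0.014 and -0.017 under a minimum of 10 counts per library, and at -0.013 and -0.014 when fitted by itself. With 1 library left out, the log2 fold change changed sign in these results: for KO against flox mice under MTX it ran from -0.043 to 0.67 for Casp4, -0.56 to 1.37 for Il1b and -0.083 to 0.53 for Il18, for MTX against vehicle in KO mice it ran from -0.086 to 0.40 for Pycard, -0.0072 to 0.44 for Casp1, -0.16 to 0.18 for Casp4, -0.21 to 0.13 for Gsdmd, -0.28 to 1.16 for Il1b, -0.19 to 0.24 for Il18 and -0.39 to 0.53 for Il1rn, for the interaction it ran from -0.41 to 0.40 for Nlrp3 and -1.87 to 0.16 for Il1b.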
